A study of Mus musculus with 2 samples.

Results

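The tissue inhibitors of metalloproteinases (TIMPs) are the 4 genes Timp1, Timp2, Timp3 and Timp4, taken by symbol from the 31253 genes of the deposited matrices. No measured value was used to choose them. Cells were dissociated from the abdominal aorta of mice after infusion of PPE, porcine pancreatic elastase, an enzyme that cuts elastin and so brings on an aneurysm, and their RNA was counted cell by cell. One group was wild-type C57BL/6J mice (WT), and the other carried a global deletion of Gsdme (Gsdme-KO), the gene of the pore-forming protein gasdermin E. Both groups received PPE, so no untreated aorta is compared here. Age, sex, the number of mice per library and the time after PPE are not given in the sources used here. Each group was 1 library, so none of the differences could be checked against replicates and no test was run. Every interval covers counting error only, at the 95% level.

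TIMPs are small secreted proteins whose amino-terminal domain fits into the active site of a metalloproteinase and blocks it. Their targets are the matrix metalloproteinases (MMPs), which cut collagen, elastin and other matrix proteins, and, mainly for Timp3, proteases of the ADAM and ADAMTS families. Timp1 is known as the inducible member that responds to cytokines and growth factors. Timp2 is more evenly expressed and, besides inhibiting MMPs, takes part in the activation of pro-MMP2 on the cell surface by Mmp14. Timp3 is held in the matrix, and Timp4 has the most restricted expression. The balance of elastin-cutting MMPs and TIMPs is a long-standing theme of aneurysm research.

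On the mm10 build with the GENCODE M21 annotation, Timp1 lies on the plus strand of chromosome X (chrX:20870166-20874735), inside Syn1 on the opposite strand. Timp3 lies on the plus strand of chromosome 10 (chr10:86300372-86349506), inside Syn3, and Timp4 on the minus strand of chromosome 6 (chr6:115241892-115252205), inside Syn2 and the gene model Gm17482, again on opposite strands. Timp2 lies on the minus strand of chromosome 11 (chr11:118301069-118355740) and overlaps Cep295nl on the same strand. The strand used in counting was not stated, so reads of these nested genes cannot be told apart by strand. The synapsin genes themselves were low over all cells, at 5.97 and 6.57 CPM for Syn1, 0.437 and 0.498 CPM for Syn2, and 2.06 and 1.67 CPM for Syn3 (WT first in each pair). CPM is counts per 1000000 UMIs of the cells in question, and a UMI, or unique molecular identifier, stands for 1 captured transcript.

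The stretches of 250 bases before the start sites of Timp1 and Timp4 are shown because these 2 genes lie at the ends of the family in the data: Timp1 had the largest difference between the libraries, and Timp4 was nearly limited to 1 cluster. Sequences are from RefSeq (GRCm38.p6), 5′ to 3′ on the gene's strand, and capitals mark CpG dinucleotides.
Timp1, chrX:20869916-20870165, plus strand: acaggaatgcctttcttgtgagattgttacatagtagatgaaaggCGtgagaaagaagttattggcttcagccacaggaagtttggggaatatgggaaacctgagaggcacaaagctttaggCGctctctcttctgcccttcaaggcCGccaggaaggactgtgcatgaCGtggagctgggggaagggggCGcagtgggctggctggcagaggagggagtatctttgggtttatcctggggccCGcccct
Timp4, chr6:115252206-115252455, minus strand: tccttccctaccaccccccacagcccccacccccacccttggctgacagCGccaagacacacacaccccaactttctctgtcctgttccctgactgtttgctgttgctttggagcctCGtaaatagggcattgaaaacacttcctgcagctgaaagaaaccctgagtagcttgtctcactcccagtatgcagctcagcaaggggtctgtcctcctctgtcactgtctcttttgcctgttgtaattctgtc
Timp1 has 6 CpG in this stretch and Timp4 has 2, while Timp2 has 21 and Timp3 has 18; the median of all 32851 promoters in the table is 6. The GC share is 54.4% for Timp1, 68.0% for Timp2, 65.6% for Timp3 and 53.6% for Timp4.

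Motifs were searched on both strands of the window from 250 bases before to 50 bases after each start site. The AP-1 motif TGAGTCA, present in 5.20% of all promoters of that length, was in none of the 4 windows. The same held for the EGR motif GCGTGGGCG (0.612% of promoters), the STAT motif TTCNNNGAA (8.30%) and the TATAAA box (13.6%). A near relative of the AP-1 motif, TGAGTAA, was present once, in Timp1, at position 27 after the start site, and is found in 2.68% of promoters. It is shown with its neighbours, the motif in capitals, because AP-1 genes are measured below.
Timp1, chrX:20870184-20870206, plus strand: tgggtggaTGAGTAAtgcgtcca
A match is only a match of letters and marks no measured binding.

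The cell filter left 7619 cells in WT and 8784 in Gsdme-KO, at a median depth of 3835 and 4062 UMIs and totals of 38872728 and 52188483 UMIs. They formed 27 clusters, of which 22 were named from marker genes and 16 of those had at least 50 cells in each library. Levels and ratios are given by cluster, because fibroblast-like cluster 0 had a pericyte marker, Abcc9, and no fibroblast marker among its 10 leading genes, although all 10 fibroblast markers were found in 25% or more of its cells. Clusters of 1 name were summed only for shares of UMIs and for the fibroblast-like level behind the free RNA estimates. The 2 libraries shared 73 cell barcodes. Gsdme itself stood at 5.53 CPM (215 UMIs) in WT and 2.55 CPM (133 UMIs) in Gsdme-KO, a ratio of 0.461 (0.368 to 0.575), so its RNA was lower but present; the sources used here do not say which part of the gene was deleted.

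On the CPM scale Timp1 was higher in Gsdme-KO in each of the 16 named clusters compared, and most of its UMIs lay in fibroblast-like cells. Over all cells Timp1 stood at 37.9 CPM in WT (1473 UMIs) and 195 CPM in Gsdme-KO (10172 UMIs), a ratio of 5.14 (4.87 to 5.44). In fibroblast-like cluster 0, led by Mfap4, Cilp and C7, it stood at 114 CPM in WT and 572 in Gsdme-KO, a ratio of 5.00 (4.58 to 5.46). In fibroblast-like cluster 12, led by Bmp3, Sema3c and Cd55, it stood at 88.3 and 316 CPM, a ratio of 3.58 (3.2 to 4.02). These ratios stand against a background in which 4.39% of the genes measured in cluster 0, 3.59% of those in cluster 12 and 4.88% of those over all cells were at least 1.5-fold higher in Gsdme-KO. A gene counted as measured with at least 10 CPM and 30 UMIs in the higher library. In cluster 0 the 10 fibroblast markers, none at 0, summed to 70829 CPM in WT and 67155 in Gsdme-KO. The 6 pericyte markers, with Higd1b at 0 in both libraries, summed to 279 and 402 CPM there, and to 29.3 and 28.1 CPM in cluster 12. The 12 macrophage markers, none at 0, summed to 1505 and 786 CPM there, and in cluster 12 to 1406 and 710 CPM. The lower macrophage marker sums of both clusters and the higher pericyte marker sum of cluster 0 moved with the TIMP values, and their part in them was not tested.

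**Figure D1:**
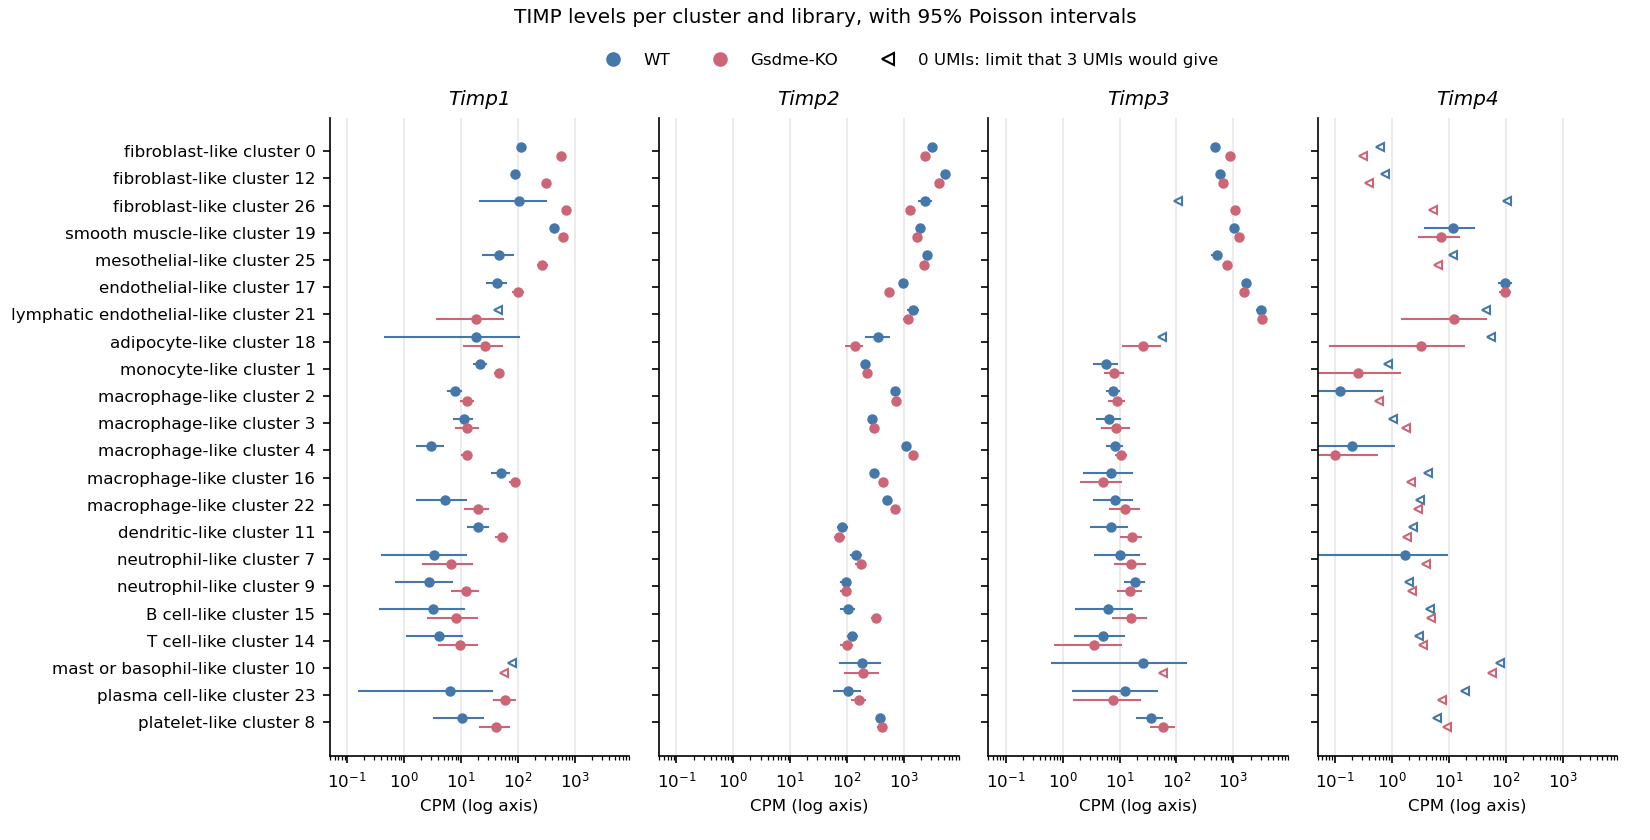
CPM of Timp1, Timp2, Timp3 and Timp4 (log axis) in each named cluster, with WT in blue and Gsdme-KO in red; lines are 95% Poisson intervals and open triangles mark 0 UMIs, drawn at the level that 3 UMIs would give. Timp1 is to the right in Gsdme-KO in fibroblast-like clusters 0 (114 and 572 CPM) and 12 (88.3 and 316 CPM), whereas Timp4 reaches 97.7 and 97.6 CPM in endothelial-like cluster 17 and has 0 UMIs in the fibroblast-like clusters.

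The difference was seen in the number of cells with Timp1 as well as in the amount per cell. In cluster 0, 41.8% of WT cells and 77.5% of Gsdme-KO cells had a Timp1 UMI. With each cell thinned to 1000 UMIs, to remove the difference in depth (medians of 8110.5 and 10286 UMIs per cell) and leaving out 2 and 3 shallower cells, the shares were 10.5% (8.03 to 13.4) and 29.1% (26.0 to 32.3). In cluster 12 the thinned shares were 5.71% (3.65 to 8.44) and 17.3% (14.5 to 20.4). Both pairs of intervals are apart. Among T cell-like cells, to be set beside the unthinned shares of cluster 0, 0.946% and 2.80% had a Timp1 UMI before thinning, at medians of 2703 and 2638.5 UMIs per cell. At least 5 Timp1 UMIs were found in 4.4% of WT and 36.1% of Gsdme-KO cells in cluster 0, and in 4.47% and 26.8% in cluster 12. The distribution was uneven in both libraries, since the 10% of cells richest in Timp1 held 54.7% of the Timp1 UMIs of cluster 0 in WT and 51.0% in Gsdme-KO.

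**Figure D2:**
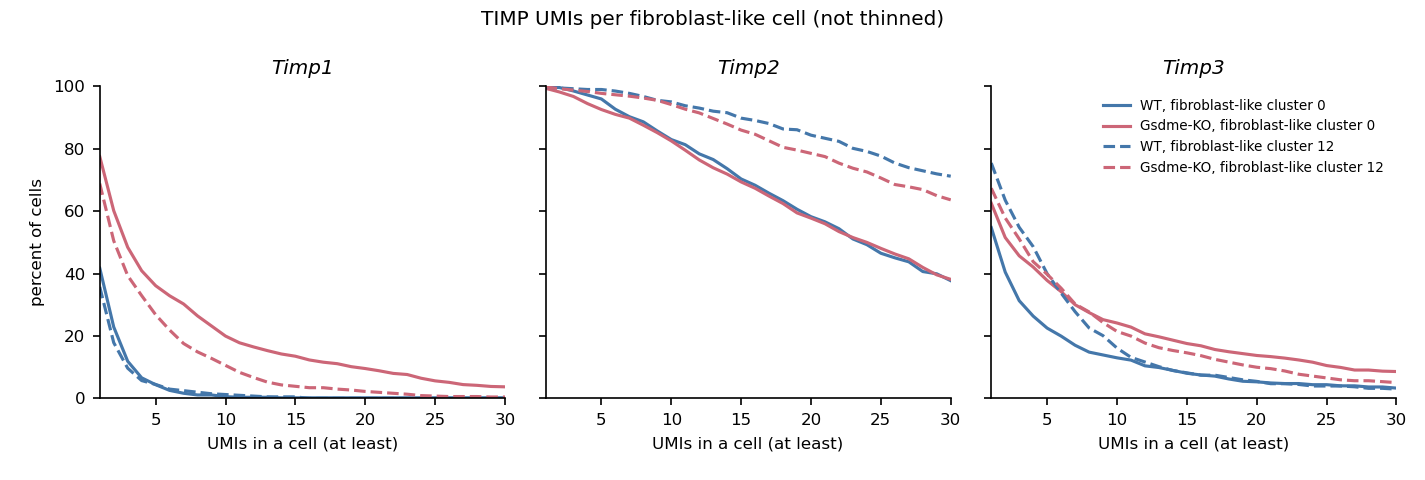
Percent of cells (vertical axis) with at least the number of UMIs on the horizontal axis, for Timp1, Timp2 and Timp3 in fibroblast-like clusters 0 (solid) and 12 (dashed), WT in blue and Gsdme-KO in red, with no thinning. For Timp1 the Gsdme-KO curves lie above both WT curves; for Timp2 in cluster 0 the curves run together, with 83.0% and 82.5% of cells at 10 UMIs or more.

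The highest Timp1 level in WT was not in fibroblast-like cells. It was in smooth muscle-like cluster 19, at 432 CPM (372 to 499), against 621 CPM (572 to 674) in Gsdme-KO. The ratio was 1.44 (1.22 to 1.71), and its direction turned when cells were thinned (0.868) or averaged cell by cell (0.964), while it was 2.25 in cells with at most 10% mitochondrial UMIs. A small number of cells decided this value: in Gsdme-KO the richest 10% of cells held 84.8% of the cluster's Timp1 UMIs and 1 cell held 153 of 585. This cluster also carried fibroblast RNA, with the 10 fibroblast markers, none at 0, summing to 58092 CPM in WT and 34992 in Gsdme-KO beside 6715 and 9746 CPM for the 10 smooth muscle markers. Their part in the values of cluster 19 was not tested.

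Timp1 in endothelial-like cluster 17 stood at 42.8 CPM in WT and 98.6 in Gsdme-KO, a ratio of 2.31 (1.5 to 3.64), where 8.43% of genes were at least 1.5-fold higher. Thinning moved it to 6.73. In Gsdme-KO 1 endothelial-like cell held 34 of the 100 UMIs. Mesothelial-like cluster 25, with 42 WT and 58 Gsdme-KO cells and thus too small for a ratio here, had 47.0 CPM (24.3 to 82.1) and 266 CPM (221 to 318), intervals that do not overlap. Its 10 fibroblast markers, none at 0, summed to 20110 and 15539 CPM, and fibroblast RNA at that content would give 40.7 and 149 CPM of Timp1 by the estimate described below, so the measured levels were 1.15 and 1.79 times it.

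Among immune cells Timp1 was low, and its measured level, free RNA included, was higher in Gsdme-KO. Monocyte-like cluster 1, led by Arg1, Chil3 and Thbs1, had 21.6 and 45.6 CPM, a ratio of 2.11 (1.60 to 2.80). Dendritic-like cluster 11 had 20.2 and 52.1 CPM, a ratio of 2.57 (1.64 to 4.16). Macrophage-like cluster 4, led by Lyve1, Folr2 and Cd163, had the lowest level of the macrophage-like clusters in WT, 2.98 CPM from 15 UMIs, against 12.5 CPM from 124 UMIs, a ratio of 4.19 (2.44 to 7.71). At a finer clustering a group led by C6, Lyve1 and Ccl8 took 99.9% of its cells from cluster 4. It had 14 and 72 Timp1 UMIs, a ratio of 2.47 (1.38 to 4.74). Another group, led by Ccr2, Clec4b1 and H2-Eb1, took 73.2% of its cells from cluster 4 and the rest from other clusters. There Timp1 had 2 and 63 UMIs, not all of them necessarily from cluster 4 cells, a ratio of 15.5 (4.12 to 131). Macrophage-like cluster 16, led by Lyz1, Ear2 and Retnla, had the highest, 50.5 and 86.9 CPM, a ratio of 1.72 (1.17 to 2.59) that was 3.0 after thinning and 1.07 as a mean over cells. In Trem2-led macrophage-like cluster 2 the values were 7.71 and 12.8 CPM, and in Cd72-led cluster 3 they were 11.1 and 12.9 CPM, with a ratio of 1.16 (0.643 to 2.06) that does not separate the libraries.

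Free RNA from fibroblast-like cells can appear in other droplets, and the level it would give was estimated as the fibroblast-like Timp1 level scaled by each cluster's content of Col1a1, Col1a2, Col3a1 and Dcn RNA. For cluster 4 this gave 1.05 CPM in WT and 4.4 in Gsdme-KO, so the measured Timp1 was 2.85 and 2.84 times the estimate. For T cell-like cells it gave 1.29 and 7.23 CPM beside measured levels of 4.06 and 9.54 CPM. Monocyte-like cluster 1 stood 23.8 and 11.6 times above its estimate, dendritic-like cluster 11 stood 22.4 and 3.69 times above, and macrophage-like cluster 16 stood 53.1 and 24.0 times above. T cell-like, B cell-like, neutrophil-like and platelet-like levels were between 1.97 and 3.16 times the estimate in WT, from 5 UMIs or fewer per cluster, and between 0.793 and 1.49 times it in Gsdme-KO. The multiples of clusters 1, 11 and 16 were above these in both libraries, whereas that of cluster 4 was within them in WT and above them in Gsdme-KO. Macrophage-like clusters 2 and 3 were also above them, at 6.76 and 9.83 in WT but only 2.74 and 3.13 in Gsdme-KO. Whether Timp1 would still be higher in Gsdme-KO without free RNA was not tested.

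In all, the ratio was above 1 in 16 of 16 named clusters, and its interval lay above 1 in 12. The fibroblast-like Timp1 level behind the free RNA estimates was itself 103 CPM in WT and 469 in Gsdme-KO, so the directions are not separate. Clusters 8 and 9, both among the 12, stood at 1.43 and 1.49 times the estimate in Gsdme-KO. Among the unnamed clusters, left out here, cluster 6 had 19.0 and 14.6 CPM and cluster 24 had 1 and 0 UMIs. Unnamed clusters 5, 13 and 20 were higher in Gsdme-KO. At least 1 alternative setting put the Timp1 ratio below 1 in clusters 3, 8, 14, 15 and 19. Of the 10 clusters with at least 30 Timp1 UMIs, 8 were at least 1.5-fold higher and none was that much lower. Of those 8, cluster 16 fell short of 1.5-fold as a mean over cells (1.07). The share of all genes at least 1.5-fold higher was 3.95% in cluster 1, 2.12% in cluster 2, 2.66% in cluster 4, 7.8% in cluster 11 and 11.5% in cluster 16. The clusters short of 1.5-fold for Timp1 were 3 and 19, where 4.37% and 16.6% of genes were past it.

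**Figure D3:**
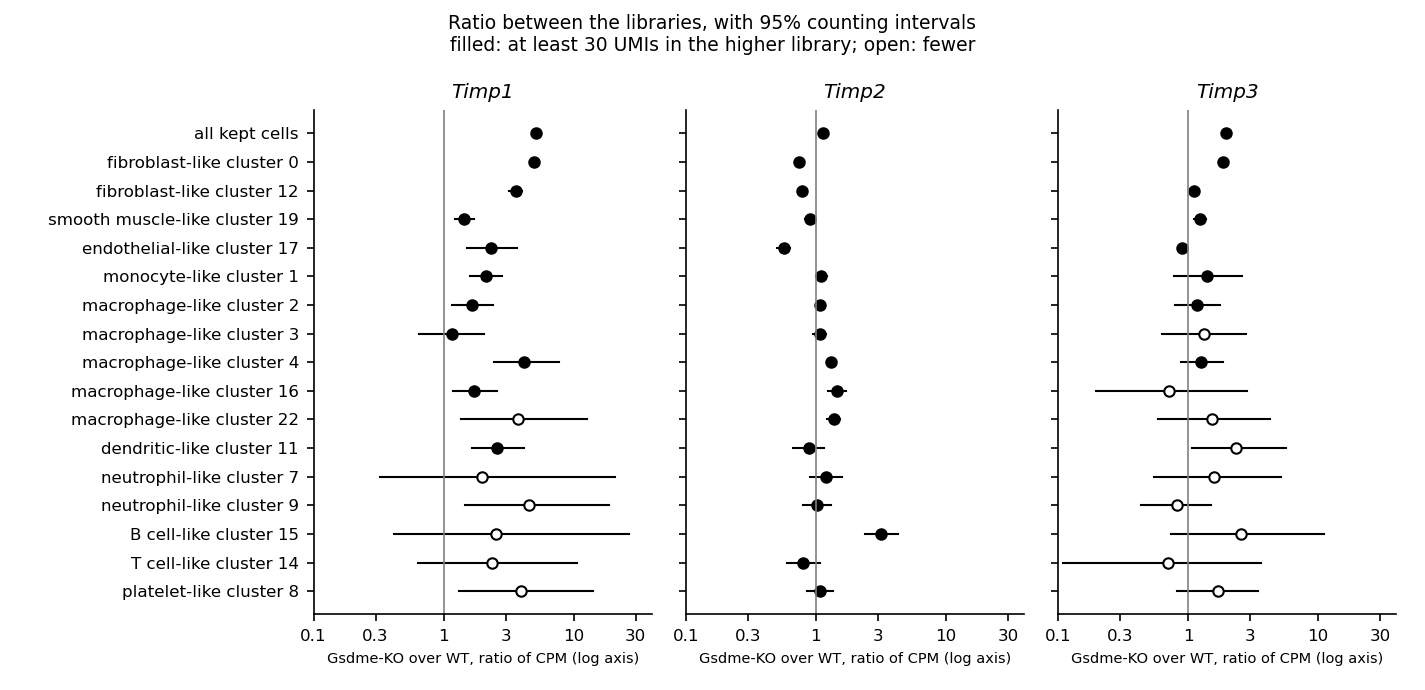
Ratio of CPM in Gsdme-KO over WT (log axis) for Timp1, Timp2 and Timp3 over all kept cells and in the 16 named clusters with at least 50 cells in each library; lines are 95% counting intervals, and open points have fewer than 30 UMIs in the higher library. The Timp1 points lie right of 1 with all UMIs counted, free RNA included, although those of clusters 3, 8, 14, 15 and 19 crossed it under 1 or more alternatives. Timp2 lies left of 1 in fibroblast-like clusters 0 (0.742) and 12 (0.784) and right of 1 in macrophage-like cluster 4 (1.31).

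Timp2 differed less, being lower in Gsdme-KO in fibroblast-like cells and higher in Lyve1-led macrophage-like cells. Over all cells it stood at 1376 CPM in WT and 1562 in Gsdme-KO, a ratio of 1.13 (1.12 to 1.15). In fibroblast-like cluster 0 it stood at 3134 and 2327 CPM, a ratio of 0.742 (0.727 to 0.758). In cluster 12, the cluster with the highest Timp2 level in both libraries, it stood at 5258 and 4123 CPM, a ratio of 0.784 (0.771 to 0.798). Neither ratio passed the 1.5-fold mark, which 10.9% of genes in cluster 0 and 9.5% in cluster 12 passed downwards.

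In cluster 0 the lower Timp2 level is a lower share of the cell's UMIs at nearly the same number of Timp2 UMIs. A cell of cluster 0 held a mean of 28.0 Timp2 UMIs in WT and 27.2 in Gsdme-KO, while the median cell held 8110.5 and 10286 UMIs in all. In cluster 12 the means were 51.7 and 46.1 Timp2 UMIs. The median gene was also lower in Gsdme-KO on the CPM scale, by 0.13 in cluster 0 and 0.12 in cluster 12 on the log2 scale. With TMM factors, which centre on most genes, the Timp2 ratio was 0.839 in cluster 0 and 0.863 in cluster 12, in the same direction and closer to 1. Nearly every fibroblast-like cell had a Timp2 UMI, 99.8% and 99.4% in cluster 0 and 99.8% and 99.9% in cluster 12.

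In macrophage-like cluster 4 Timp2 stood at 1090 CPM in WT and 1434 in Gsdme-KO, a ratio of 1.31 (1.27 to 1.36), with means of 8.47 and 14.1 Timp2 UMIs per cell. After thinning, with 6 and 10 shallower cells left out, 59.3% (55.4 to 63.2) of WT and 67.8% (64.8 to 70.7) of Gsdme-KO cells of cluster 4 had a Timp2 UMI. The measured level was 26.2 and 50.1 times the free RNA estimate, so this Timp2 was nearly all above it. Trem2-led cluster 2 was close to equal, at 680 and 730 CPM, a ratio of 1.07 (1.03 to 1.12) that fell to 0.953 after thinning. The other macrophage-like clusters with an interval above 1 were cluster 16, at 297 and 430 CPM, and the cycling cluster 22, led by Top2a, at 504 and 692 CPM. The order of the macrophage-like clusters by Timp2 level was the same in both libraries, cluster 4 above 2, 22, 16 and 3, although the intervals of clusters 16 (258 to 341) and 3 (258 to 297) overlap in WT and those of clusters 2 (706 to 754) and 22 (642 to 744) overlap in Gsdme-KO.

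At a finer clustering (Leiden resolution 2) cluster 4 fell mainly into a group led by C6, Lyve1 and Ccl8 and a group led by Ccr2, Clec4b1 and H2-Eb1, of whose cells 73.2% came from cluster 4. Timp2 stood at 1245 and 1596 CPM in the first and at 629 and 777 CPM in the second, ratios of 1.28 (1.24 to 1.33) and 1.24 (1.14 to 1.34). Both groups had the higher level in Gsdme-KO, and the Lyve1 group was above the Ccr2 group in each library.

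In 2 other clusters 1 cell or a few cells held a large part of the Timp2 UMIs of 1 library. In endothelial-like cluster 17 Timp2 stood at 951 CPM in WT and 538 in Gsdme-KO, a ratio of 0.566 (0.504 to 0.636), where 8.15% of genes were at least 1.5-fold lower. The ratio stayed below 1 under all 10 alternatives, between 0.521 and 0.799. However, 1 WT cell held 163 of the 623 UMIs. The thinned shares, with 21 and 39 shallower cells left out, were 32.9% (23.1 to 44.0) and 35.6% (26.4 to 45.8). The 10 fibroblast markers, none at 0, summed to 3419 and 2023 CPM in this cluster, while the 10 smooth muscle markers (Cnn1 and Actg2 at 0 in Gsdme-KO) summed to 785 and 1137 CPM and the 6 pericyte markers, none at 0, to 1096 and 1395 CPM. Their part in the TIMP values of cluster 17 was not tested. In B cell-like cluster 15 it stood at 102 and 320 CPM, a ratio of 3.15 (2.37 to 4.25) that became 1.41 after thinning and 1.90 as a mean over cells, where 9.37% of genes were at least 1.5-fold higher. There the richest 10% of Gsdme-KO cells held 94.4% of the Timp2 UMIs, and 16.5% of WT and 16.2% of Gsdme-KO cells had any. Smooth muscle-like cluster 19 had 1895 and 1710 CPM, a ratio of 0.903 (0.829 to 0.983) that became 1.12 after thinning. These 3 values come from small clusters, with 106 and 140 endothelial-like, 224 and 185 B cell-like and 61 and 176 smooth muscle-like cells. In the endothelial-like and B cell-like clusters the share of cells with the gene was alike.

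Timp3 was highest in the vessel lining. Among clusters large enough for a ratio, it differed between the libraries mainly in fibroblast-like cluster 0. Lymphatic endothelial-like cluster 21, with only 19 WT and 30 Gsdme-KO cells, had the highest level, 3038 CPM (2635 to 3485) in WT and 3179 CPM (2910 to 3465) in Gsdme-KO. Endothelial-like cluster 17 followed with 1697 CPM (1598 to 1799) and 1531 CPM (1456 to 1610). Next came smooth muscle-like cluster 19 with 1033 CPM (939 to 1134) and 1269 CPM (1198 to 1343). Neighbours in this order have intervals that are apart in each library. Mesothelial-like cluster 25, too small for a ratio, had 131 Timp3 UMIs of 255297 in WT and 361 of 458722 in Gsdme-KO, also a higher share in Gsdme-KO.

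In fibroblast-like cluster 0 Timp3 stood at 480 CPM in WT and 886 in Gsdme-KO, a ratio of 1.85 (1.76 to 1.93). In cluster 12 it stood at 590 and 656 CPM, a ratio of 1.11 (1.06 to 1.17) that was 0.974 at Leiden resolution 2. That last value pools the Cxcl13-led and Sema3c-led groups described below, each of which alone had a ratio above 1. Cluster 12 was thus above cluster 0 in WT and below it in Gsdme-KO. After thinning, the share of cluster 0 cells with a Timp3 UMI was 22.4% (19.0 to 26.2) in WT and 33.3% (30.1 to 36.6) in Gsdme-KO, and that of cluster 12 was 31.5% (27.0 to 36.3) and 33.4% (29.9 to 37.1). Over all cells Timp3 stood at 181 and 356 CPM, a ratio of 1.97 (1.92 to 2.03).

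Timp3 was uneven among fibroblast-like cells, its richest 10% of cells holding 63.6% and 64.7% of the UMIs of cluster 0. The finer clusters show part of this. A group led by Thbs4, C1qtnf3 and Col12a1 had 742 CPM in WT and 1651 in Gsdme-KO, a ratio of 2.22 (2.07 to 2.40). A group led by C7, Fmo2 and Gdf10 had 442 and 896 CPM, a ratio of 2.03 (1.91 to 2.15). A group led by Cxcl13, Ptx3 and Chl1, drawn from clusters 0 and 12, had 85.3 and 236 CPM, a ratio of 2.77 (2.26 to 3.42). A group led by Igfbp5, Sema3c and Bmp3 had 708 and 844 CPM, a ratio of 1.19 (1.13 to 1.25). All 4 groups had a higher level in Gsdme-KO, and the Sema3c-led group had the ratio closest to 1. In the same 4 groups the Timp1 ratios were 3.26, 5.46, 3.52 and 3.73, and the Timp2 ratios were 0.864, 0.780, 0.778 and 0.824, so the 3 genes kept their directions in each.

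In endothelial-like cluster 17 the Timp3 ratio was 0.903 (0.835 to 0.976), with the direction turned by thinning (1.02) and by averaging over cells (1.22). In smooth muscle-like cluster 19 it was 1.23 (1.10 to 1.37), next to the fibroblast markers given above. In the macrophage-like clusters Timp3 was between 5.16 and 12.7 CPM in both libraries and between 0.840 and 2.06 times the free RNA estimate, so it was not separated from free RNA there. The same was true of dendritic-like cluster 11, where the ratio was 2.33 (1.07 to 5.64), or 1.25 without the 5% highest doublet scores, and the level 1.51 and 0.683 times the estimate.

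Timp4 was the rarest of the 4 in these cells, with 72 UMIs in WT and 111 in Gsdme-KO, 1.85 and 2.13 CPM, a ratio of 1.15 (0.846 to 1.57) that was 0.747 as a mean over cells. Endothelial-like cluster 17 held 64 and 99 of these UMIs, 88.9% and 89.2%. Its level was 97.7 CPM (75.3 to 125) in WT and 97.6 CPM (79.3 to 119) in Gsdme-KO, a ratio of 0.999 (0.722 to 1.39), which leaves a difference of up to 1.39-fold either way within counting error. Under the 10 alternatives this ratio lay between 0.632 (mean over cells) and 1.47 (thinned), on the other side of 1 in 6, so its direction is not settled. Even in this cluster Timp4 was patchy: 10.6% of WT and 12.9% of Gsdme-KO cells had a Timp4 UMI after thinning, and in Gsdme-KO the richest 10% of cells held 89.9% of the UMIs. Smooth muscle-like cluster 19 had 5 and 7 UMIs. Fibroblast-like cluster 0 had 0 in both libraries, which allows up to 0.615 CPM in WT and 0.307 in Gsdme-KO. The free RNA estimate for Timp4 in endothelial-like cells was therefore 0 CPM in both libraries.

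The cells that supplied each transcript differed by gene. Summed over clusters of 1 name, fibroblast-like clusters (0, 12 and the small cycling cluster 26) held 61.8% of the Timp1 UMIs in WT and 82.2% in Gsdme-KO, while the share of smooth muscle-like cells was 12.6% and 5.75% and that of macrophage-like cells 10.2% and 3.43%. For Timp2 the fibroblast-like share was 67.6% and 66.7% and the macrophage-like share 23.4% and 24.2%. For Timp3 the fibroblast-like share was 66.6% and 76.4% and the endothelial-like share 15.8% and 8.35%. Macrophage-like cells thus held a larger share of Timp2 than of Timp1 in both libraries.

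**Figure D4:**
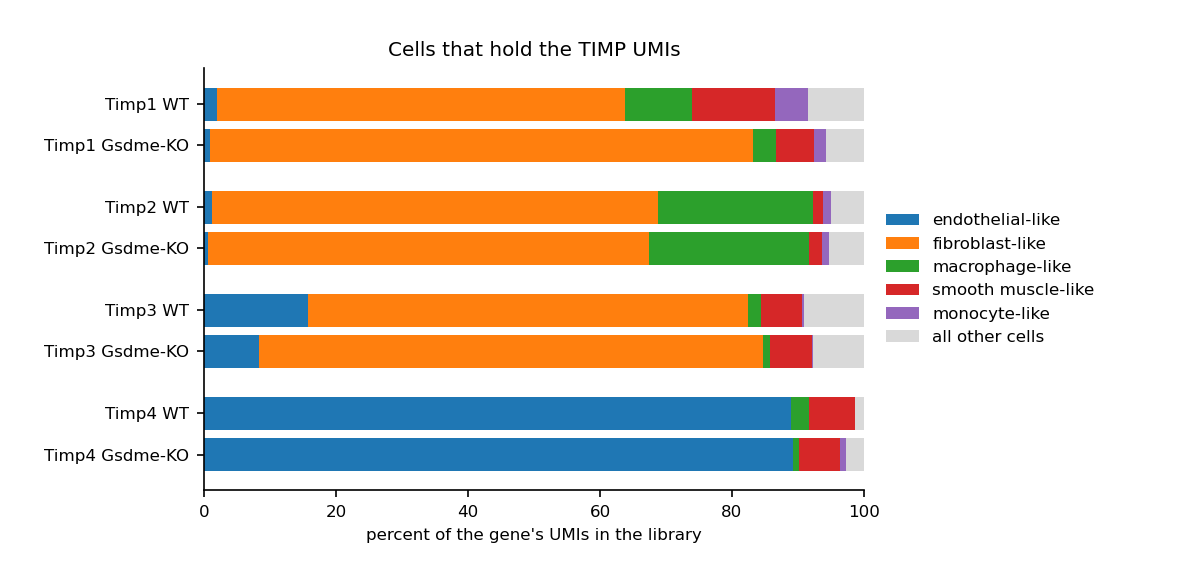
Percent of each TIMP gene's UMIs (horizontal axis) held by each named kind of cell, clusters of 1 name summed, 1 bar per gene and library; grey is all other cells, unnamed clusters included. The fibroblast-like part of Timp1 is 61.8% in WT and 82.2% in Gsdme-KO, and 88.9% and 89.2% of Timp4 is endothelial-like.

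Cell numbers also differed, and part of the overall ratios went with them. The cells of cluster 0 were 7.17% of all WT cells and 9.52% of all Gsdme-KO cells, and those of cluster 12 were 5.29% and 7.64%. Counted per cell, the Timp1 ratio was 5.99, and 4.23 when the Gsdme-KO clusters were weighted by the WT cell shares. The Timp2 ratio of 1.32 per cell became 1.03, and the Timp3 ratio of 2.30 became 1.62. With the shares of Gsdme-KO in place of those of WT the ratios were 4.02, 1.00 and 1.64. At equal shares of the 27 clusters the Timp2 ratio per cell was thus 1.03 or 1.00, whereas a Timp1 ratio of about 4 remained. These ratios per cell were not corrected for depth. A cell held a mean of 8928 UMIs in WT and 11694 in Gsdme-KO in cluster 0, and 7417 and 7147 in macrophage-like cluster 2. On the CPM scale Timp2 was above 1 in 10 of 16 named clusters, but at 0.742 and 0.784 in clusters 0 and 12. The part of depth and of these opposite directions in the Timp2 value was not tested. Shares of groups inside a cluster were not made equal. The Cxcl13-led group of the finer clustering, at 172 and 607 CPM of Timp1, had 114 WT and 422 Gsdme-KO cells. The C7-led group, at 75.9 and 414 CPM, had 417 and 445 cells.

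The targets of the TIMPs were read in the same fibroblast-like clusters. Of 18 MMP genes, 9 were measured in cluster 0, of which none was at least 1.5-fold higher and 3 were at least 1.5-fold lower in Gsdme-KO, and their median log2 ratio was −0.58 beside −0.13 for all genes. Of all genes measured in cluster 0, 4.39% were that much higher and 10.9% lower. The 3 were Mmp11 (stromelysin 3) at 92.1 and 33.2 CPM, Mmp13 (a collagenase) at 48.4 and 4.19 CPM, and Mmp12 (macrophage elastase) at 13.5 and 2.25 CPM. Mmp12 and Mmp13 are among the leading genes of macrophage-like clusters 2 and 3 here, and the macrophage marker sums given above differ in the same direction. Their part in these 2 ratios was not tested.

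The MMPs most abundant in these cells did not share a direction. Mmp14, the membrane-bound MMP that works with Timp2 on pro-MMP2, stood at 704 and 472 CPM in cluster 0, a ratio of 0.670 (0.641 to 0.701), and at 818 and 568 CPM in cluster 12, a ratio of 0.694 (0.663 to 0.727). Mmp2, the gelatinase that it activates, stood at 1126 and 1050 CPM in cluster 0 and at 1137 and 1211 CPM in cluster 12. Mmp3 (stromelysin 1) stood at 1502 and 1993 CPM in cluster 0, a ratio of 1.33 (1.29 to 1.36), and at 387 and 546 CPM in cluster 12, a ratio of 1.41 (1.33 to 1.49). Timp2 and Mmp14 were thus both lower in Gsdme-KO in both clusters, and Timp1 and Mmp3 both higher. In cluster 12, 6 MMP genes were measured, with Mmp19 at least 1.5-fold higher (86.8 and 135 CPM) and Mmp11 at least that much lower (91.3 and 32.1 CPM), where 3.59% and 9.5% of all genes were.

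The ADAM and ADAMTS proteases, many of them targets of Timp3, differed less. In cluster 0, 16 of 18 were measured, none was at least 1.5-fold higher and 1 was lower, Adam33, at 23.0 and 10.4 CPM, and their median log2 ratio was −0.01. That 1 of 16 is not above the 10.9% of all genes that were lower there. Adam17, the protease that sheds tumour necrosis factor, stood at 103 and 87.6 CPM, and Adamts5, an aggrecanase, at 877 and 654 CPM. Adamts1 was higher, at 452 and 638 CPM, a ratio of 1.41 (1.34 to 1.48). In cluster 12, 15 were measured, of which Adam33 and Adam8 were at least 1.5-fold lower, beside 9.5% of all genes.

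Among partners of the TIMPs and other inhibitors, Cd63, a cell surface receptor of TIMP1, was higher in Gsdme-KO. Cluster 0 had 525 and 715 CPM of Cd63, a ratio of 1.36 (1.30 to 1.42), and cluster 12 had 370 and 543 CPM, a ratio of 1.47 (1.38 to 1.56). Lrp1, an endocytic receptor that takes up TIMPs and MMPs, stood at 473 and 441 CPM in cluster 0. The membrane-bound MMP inhibitor Reck was lower, with 30.6 and 18.4 CPM in cluster 0, and 44.6 and 26.7 CPM were found in cluster 12. Tfpi2, a secreted inhibitor of serine proteases, was higher, with 37.7 and 58.1 CPM in cluster 0, and 43.6 and 65.7 CPM were found in cluster 12. Reck and Tfpi2 were the only 2 of 8 measured genes in cluster 0, and of 9 in cluster 12, past 1.5-fold, 1 in each direction. Of all genes, 4.39% were that much higher and 10.9% lower in cluster 0, and 3.59% and 9.5% in cluster 12. These counts are too small to set the list apart from all genes.

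Genes known to act upstream of Timp1 were split. All 18 were measured in cluster 0, where 4 were at least 1.5-fold higher and 4 at least 1.5-fold lower in Gsdme-KO, beside 4.39% and 10.9% of all genes. Their median log2 ratio was −0.18, and that of all genes −0.13. The 4 higher were 3 cytokines of the interleukin 6 family and an AP-1 subunit. Lif stood at 18.3 and 155 CPM, a ratio of 8.48 (6.84 to 10.6), and Il11 at 9.85 and 75.1 CPM, a ratio of 7.63 (5.69 to 10.4). Il6 stood at 718 and 1184 CPM, and Fosl1, the AP-1 subunit, at 45.1 and 95.2 CPM. The 4 lower were the receptor Lifr (82.1 and 36.1 CPM), the cytokine Osm (28.3 and 11.5 CPM), the feedback inhibitor Socs3 (461 and 220 CPM) and the AP-1 subunit Jun (1880 and 1188 CPM). Osm is a product of myeloid cells, and the part of the macrophage RNA in its value was likewise not tested. The immediate early genes Fos and Egr1 were lower too, Fos at 8336 and 6199 CPM and Egr1 at 7697 and 5266 CPM. In cluster 12 the ratios were smaller for Lif, 2.20 (1.84 to 2.65), and for Il11, 2.34 (1.82 to 3.04). The Timp1 ratio was smaller there as well, though not when the TIMP genes were kept in clustering. Of the 18 genes in cluster 12, 3 were at least 1.5-fold higher and 3 lower, beside 3.59% and 9.5% of all genes. Fosl1, Lifr, Osm and Socs3 were again among them.

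**Figure D5:**
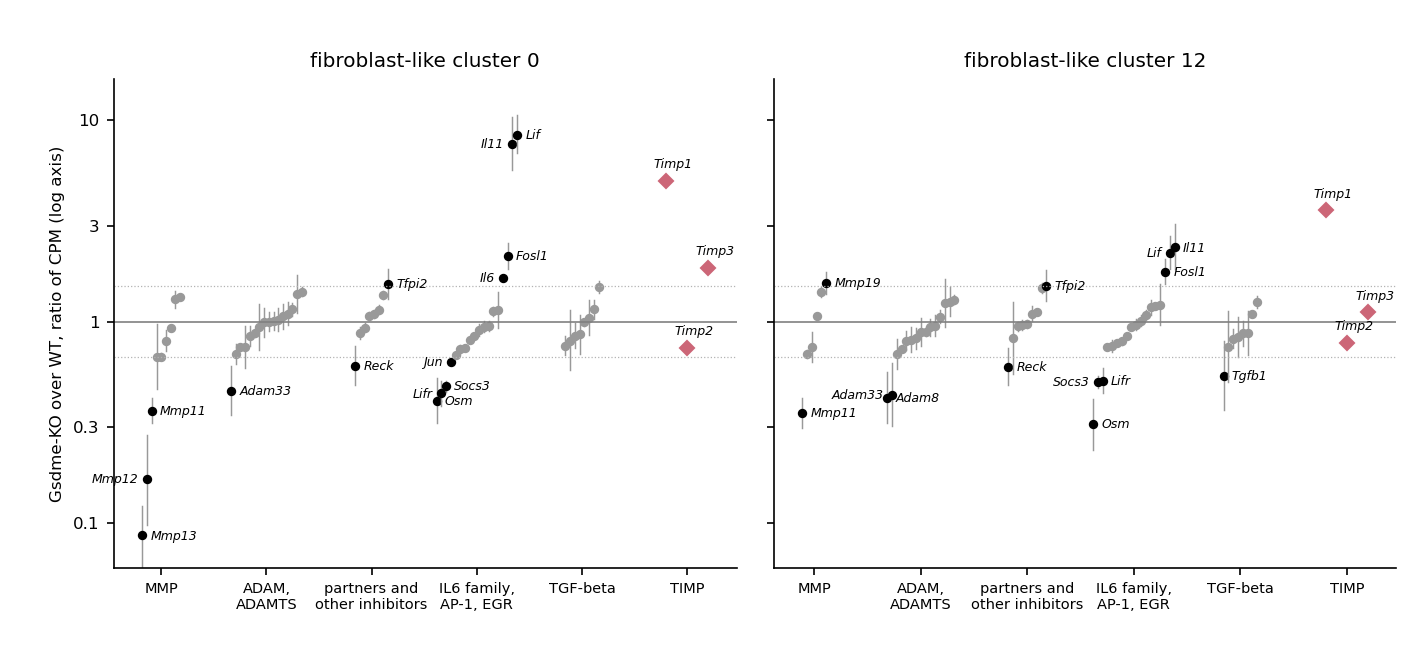
Ratio of CPM in Gsdme-KO over WT (log axis) for the measured genes of 5 lists in fibroblast-like clusters 0 and 12, with 95% counting intervals; named black points are at least 1.5-fold higher or lower, dotted lines mark 1.5-fold, and red diamonds are Timp1, Timp2 and Timp3. In cluster 0, Lif (8.48) and Il11 (7.63) lie above Timp1 (5.00), and Mmp13 and Mmp12 lie lowest.

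Within a library, Timp1 was higher in fibroblast-like cells that also had a Lif UMI. In cluster 0 of Gsdme-KO, Timp1 stood at 806 CPM in the 197 cells with a Lif UMI and at 459 CPM in the 639 without. In WT it stood at 192 CPM in 43 cells and 105 CPM in 503 cells. In cluster 12 it stood at 541 and 270 CPM in Gsdme-KO and at 192 and 74.5 CPM in WT. Cells with a Lif UMI were deeper, with medians of 15648 against 8744 UMIs in Gsdme-KO cluster 0, and a cell without a UMI may still express the gene. Gsdme-KO cells without a Lif UMI had more Timp1 than WT cells with one in both clusters, 459 against 192 CPM and 270 against 192 CPM. The difference between the libraries was therefore present among cells with no Lif UMI as well. The same split was made for 5 other genes. Timp1 was higher in cells with an Il11 or a Fosl1 UMI in both clusters and libraries, so the pattern was not limited to Lif. Such cells were deeper as well, in Gsdme-KO cluster 0 with medians of 17619 against 9099 UMIs for Il11 and 15506 against 7506 for Fosl1. These splits thus also sort cells by depth and are not separate from that of Lif. Timp1 was lower in WT cluster 0 cells with an Il6 UMI (103 against 144 CPM), although higher with one in Gsdme-KO (610 against 326 CPM) and in cluster 12. For Socs3 it was lower in cluster 0 of both libraries (102 against 169 CPM in WT, 545 against 655 CPM in Gsdme-KO) and slightly higher in cluster 12, and for Mmp3 it was higher in all 4.

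Of the TGF-beta ligands, receptors and signal transducers reported here, 8 were measured in each cluster. In cluster 0 none of the 8 was at least 1.5-fold higher or lower in Gsdme-KO, beside 4.39% of all genes higher and 10.9% lower. With only 8 genes this does not set them apart from all genes. In cluster 12, where 9.5% of all genes were at least 1.5-fold lower, of the 8 only the ligand Tgfb1 was, at 13.6 and 7.33 CPM, a ratio of 0.538 (0.363 to 0.799).

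The pattern of each TIMP gene over 16 clusters in 2 libraries, as 32 points of log2(CPM + 5), was compared with 10839 other genes as a description. The genes most like Timp1 were Fzd1 (r = 0.891), Ncs1, Pdia5, Cthrc1 and 9530068E07Rik. Those most like Timp2 were Zfyve21 (r = 0.946), Septin8, Kank2, Poglut3 and Mt2. For Timp3 they were Amotl1 (r = 0.988), Cdc42bpa, Ppic, Col4a1 and Cavin3, and for Timp4 Tmem255b (r = 0.983), Tspan15, Kcna5, Tspan7 and Ptprb, the last an endothelial marker. Among the TIMP genes themselves the closest pair was Timp1 with Timp3 (r = 0.789) and the least alike were Timp2 and Timp4 (r = 0.197). Points of 1 library share its depth and free RNA, so these values rank likeness and test nothing.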

How the data were processed

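The authors deposited, for each library, a matrix of whole-number counts per gene and barcode with its gene and barcode lists, made on the BD Rhapsody system from collagenase and DNase digested aorta, per the labels' protocols. That the counts are UMIs follows from the platform and is not stated. CASAVA 1.8, STARsolo and mm10 are named in the submitters' processing notes, and the sources used here give neither the annotation nor the counting strand. No barcode in either library had under 500 UMIs.

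Cells with at least 500 UMIs, 250 genes and at most 25% mitochondrial UMIs were kept (of 7736 and 9034 barcodes). Scrublet marked 0 and 1 cells and so did not work; doublets remain. Counts were scaled to 10000 per cell and log-transformed, and 2000 variable genes (library as batch, TIMP genes left out), 30 components, 15 neighbours and Leiden resolution 1 (scanpy 1.11.5) gave the clusters. Clusters were named "X-like" where 3 or more of a list's markers were each found in 25% or more of its cells, taking the list with most markers among the 10 leading genes and then the one found most fully. The 5 shallow clusters with no such leading marker stayed unnamed; clusters 0, 3, 12, 16, 22 and 26 had none among their leading genes either, so their names rest on the markers found in their cells, and rebuilt names may differ from the study's. Counts were summed per cluster and library as CPM with exact Poisson intervals, each ratio carries an exact conditional binomial interval, and shares carry Clopper-Pearson intervals. At 1000 UMIs per thinned cell, shallower cells were left out. A count of 0 was read as up to 3 counts. Intervals were tried on simulated Poisson counts, which share their own assumption, so this could not show how they fare where few cells hold most UMIs.

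The genes named were the 4 TIMP genes, list genes past 1.5-fold in fibroblast-like cells, and the 5 genes most like each TIMP gene; Mmp2, Mmp3, Mmp14, Mmp19, Adam8, Adam17, Adamts1, Adamts5, Cd63, Lrp1, Fos, Egr1 and Tgfb1 were added after their values were seen. Lists were to be read in pooled fibroblast-like cells and were read in clusters 0 and 12 instead. The genes and lists were chosen with earlier results of these data known. An item of the lists is not reported here and was left out of their counts. Alternatives were other cell filters (1000 UMIs, 10% mitochondrial, no top 5% doublet scores), Leiden resolutions 0.5 and 2, TIMP genes kept in clustering, thinning, TMM (edgeR 4.0.16) and median-of-ratios factors, means over cells, and no floor on low genes.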

Additional observations from a re-analysis of the deposited data

Results flagged for a closer look

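Timp2 and Timp3 had intervals above 1 in some clusters and below 1 in others for Gsdme-KO over WT. These differences between clusters were not tested, since each ratio compares 1 library with 1 library. Timp2 was higher in macrophage-like clusters 2 (1.07), 4 (1.31), 16 (1.45) and 22 (1.37) and in B cell-like cluster 15 (3.15, or 1.41 after thinning). It was lower in fibroblast-like clusters 0 (0.742) and 12 (0.784), endothelial-like cluster 17 (0.566) and smooth muscle-like cluster 19 (0.903). Timp3 was higher in fibroblast-like clusters 0 (1.85) and 12 (1.11), dendritic-like cluster 11 (2.33, or 1.25 without the 5% highest doublet scores) and smooth muscle-like cluster 19 (1.23), and lower in endothelial-like cluster 17 (0.903).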

How the results depend on the processing

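No paired analysis was possible because each group is 1 library. Over all cells the Timp1 ratio was 4.05 after thinning and 3.87 as a mean over cells. Timp2 was 1.18 after thinning, 1.20 with TMM factors, 1.20 with median-of-ratios factors and 1.16 as a mean over cells. Timp3 was 2.08 with TMM, 2.08 with median-of-ratios factors and 1.74 as a mean over cells. Timp4 was 0.747 as a mean over cells.

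In fibroblast-like cluster 0 the Timp1 ratio was 4.58 at resolution 0.5, 4.42 with the TIMP genes kept in clustering, 3.55 thinned, 5.65 with TMM, 5.62 with median-of-ratios factors and 4.29 as a mean over cells. Timp2 there was 0.835 with the TIMP genes kept, 0.804 thinned, 0.839 with TMM, 0.835 with median-of-ratios factors and 0.783 as a mean over cells. Timp3 was 1.51 at resolution 0.5, 2.30 at resolution 2, 2.23 with the TIMP genes kept, 2.09 with TMM and 2.08 with median-of-ratios factors. At resolution 0.5 clusters 0 and 12 were matched to the same merged group, so the values at that setting are shared and not separate checks. In cluster 12 Timp1 was the same 4.58 at resolution 0.5, 4.49 at resolution 2 and 4.46 with the TIMP genes kept. Timp2 was 0.749, 0.700 and 0.659 at these settings, 0.863 with TMM, 0.861 with median-of-ratios factors and 0.812 as a mean over cells. Timp3 was 1.51 at resolution 0.5, 1.18 thinned, 1.22 with TMM, 1.22 with median-of-ratios factors and turned to 0.974 at resolution 2. That last value pools the Cxcl13-led group (ratio 2.77, 114 WT and 422 Gsdme-KO cells) with the Sema3c-led group (1.19, 328 and 483 cells). Each of them alone was above 1. No other ratio of Timp1, Timp2 or Timp3 over all cells or in these 2 clusters changed direction under any alternative run, and the causes of the other shifts were not tested.

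Elsewhere, among ratios whose interval left out 1, directions turned for Timp2 in cluster 2 thinned (0.953), Timp1 in platelet-like cluster 8 as a mean over cells (0.839), Timp3 in cluster 17 thinned (1.02) and as a mean (1.22), and in cluster 19 for Timp1 thinned (0.868) and as a mean (0.964) and for Timp2 thinned (1.12). Ratios whose interval held 1 fell on the other side of it under at least 1 alternative for Timp1 in clusters 3 (thinned, 0.257), 14 and 15, for Timp2 in clusters 8, 9, 11 and 14, for Timp3 in clusters 2, 3, 8, 9, 14, 15 and 16, and for Timp4 over all cells and in cluster 17. With no floor on low genes, at least 1.5-fold higher and lower genes numbered 2143 and 2688 over all cells instead of 437 and 351, 1272 and 3711 in cluster 0 instead of 379 and 946, and 1469 and 3110 in cluster 12 instead of 310 and 820. Depth limits Timp4 throughout, and Timp1 and Timp3 in lymphoid, neutrophil-like and platelet-like cells, where a ratio rests on 28 UMIs or fewer per library.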
